A study of Sus scrofa with 12 samples.

Results

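OAS1, MX1, MX2, IFIT2, RSAD2 and GBP2 are 6 genes whose transcripts cells make when they sense interferon. They were taken from the porcine Affymetrix array by symbol: every probe set that the platform annotation assigns to one of them was included, which gave 12 of the 24123 probe sets on the array. Their Entrez gene identifiers there are 397570 for OAS1, 397128 for MX1, 396893 for MX2, 100155467 for IFIT2, 396752 for RSAD2 and 100153137 for GBP2. The annotation held 6765 gene symbols in all. RSAD2 had 4 probe sets, IFIT2 had 3, MX2 had 2, and OAS1, MX1 and GBP2 had 1 each. Of the 12, 8 passed the filter on low intensities and were tested. The other 4 were 3 RSAD2 probe sets that the array carries as controls, which were kept out of the main test, and 1 MX2 probe set of low intensity.

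The study measured transcripts in the longissimus dorsi, the long back muscle, of Meishan pigs kept under commercial conditions and given no experimental treatment. Its question was how expression changes as this muscle develops. The 4 stages were the fetus at 65 days post coitus (65 dpc) and pigs at 3, 60 and 120 days after birth (3 d, 60 d and 120 d), with 3 arrays each and 12 in all. The labels call the arrays of a stage biological replicates, and littermate fetuses counted as an individual, so a fetal array may hold RNA of several littermates. P-values measure the spread between these samples. Array medians lay between 49.1 and 52.6 intensity units, and the number of arrays limits the precision.

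Interferons are cytokines released by cells that detect a virus, and by activated lymphocytes and natural killer cells. Type I interferons signal through IFNAR1 and IFNAR2 and the kinases JAK1 and TYK2 to a transcription factor complex that holds STAT2 and IRF9, which switches on a large set of genes. Interferon gamma signals through its own receptor and induces GBP proteins and the antigen presentation machinery above all. OAS1 makes a short oligoadenylate that activates the RNA-degrading enzyme RNase L. MX1 is a dynamin-like GTPase that traps viral ribonucleoproteins, and MX2 is its relative. IFIT2 binds viral RNA and impairs its translation. RSAD2, also called viperin, is a radical SAM enzyme that makes a chain-terminating nucleotide. GBP2 is a GTPase that assembles on vacuoles holding intracellular pathogens. In the RefSeq annotation of assembly Sscrofa11.1, where all 6 gene identifiers were found, MX1 lies next to MX2, OAS1 next to OAS2, IFIT2 next to IFIT3, RSAD2 next to CMPK2 and GBP2 next to GBP1. Whether probes of MX1 and MX2, or of GBP2 and other GBP genes, detect each other's transcripts was not tested.

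Muscle markers bore out the labelled tissue. The intensities of 11 muscle genes, among them CKM and TTN, summed to between 35115 and 52348 in the fetus and between 64124 and 72022 after birth. MYH2, an adult fast myosin heavy chain, lay between 170.1 and 239 in the fetus and at 4571 or more after birth. In such bulk samples, fewer cells of a type and less RNA per cell cannot be told apart.

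OAS1 and RSAD2 were low in the fetus and at 3 d and high at 60 d and 120 d, and both rose over the whole span. The single OAS1 probe set read 42.1, 27.6 and 185 on fetal replicates 1, 2 and 3. It read 25.8, 98.5 and 54.9 at 3 d. It read 199.6, 269.7 and 291 at 60 d, and 311, 261 and 649 at 120 d. The 6 arrays of the older stages all lay above the 6 of the younger stages, and the highest array of the fetus and of 120 d was replicate 3 in each. Stage means were 84.9 ± 87.0 (SD, n = 3) in the fetus, 59.8 ± 36.6 at 3 d, 254 ± 48.0 at 60 d and 407 ± 211 at 120 d. In that order of levels, 3 d overlapped with the fetus and 60 d with 120 d, whereas the fetus and 60 d did not overlap.

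Changes were fitted with limma on log2(intensity + 21), a scale that understates the change of dim probe sets, and called at a Benjamini-Hochberg adjusted p under 0.05 over 16166 probe sets. From the fetus to 120 d OAS1 rose by 2.21 ± 0.50 (SE; 95% interval 1.11 to 3.31; limma adjusted p = 0.00353). That call was kept in 25 of 25 alternative settings. From 3 d to 60 d the difference was 1.85 ± 0.50 without overlap of arrays, and it missed the threshold (limma adjusted p = 0.0956). It passed only without fetal replicate 3 (limma adjusted p = 0.0315), an array that enters the shared estimate of the spread and not the difference. The 3 d minus 65 dpc difference was -0.19 ± 0.50 (limma adjusted p = 0.781), and that of 120 d minus 60 d was 0.55 ± 0.50 (limma adjusted p = 0.872).

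The tested RSAD2 probe set read 12.3, 18.5 and 54.9 in the fetus and 15.7, 20.1 and 16.1 at 3 d. It read 105, 111 and 249.8 at 60 d and 115, 134 and 536 at 120 d. All 3 arrays of 60 d and of 120 d lay above every array of the fetus and of 3 d. The 60 d and 120 d arrays overlapped, and replicate 3 was the highest of its stage in the fetus, at 60 d and at 120 d. Means were 28.5 ± 23.0 (SD, n = 3), 17.3 ± 2.45, 155 ± 82.1 and 262 ± 238 in order of age. RSAD2 rose by 2.29 ± 0.48 from the fetus to 120 d (limma adjusted p = 0.00213), a call kept in 25 of 25 alternatives. Without 120 d replicate 3 the rise was 1.65, and without replicate 3 of all 4 stages it was 2.0. From 3 d to 60 d the difference was 2.11 ± 0.48 (95% interval 1.06 to 3.16; limma adjusted p = 0.0525). That value sits at the threshold: 9 of 25 alternatives called it, among them leaving out fetal replicate 3 (limma adjusted p = 0.0440) or 120 d replicate 3 (limma adjusted p = 0.0127). The 120 d minus 60 d difference was 0.46 ± 0.48 (limma adjusted p = 0.886).

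**Figure D1:**
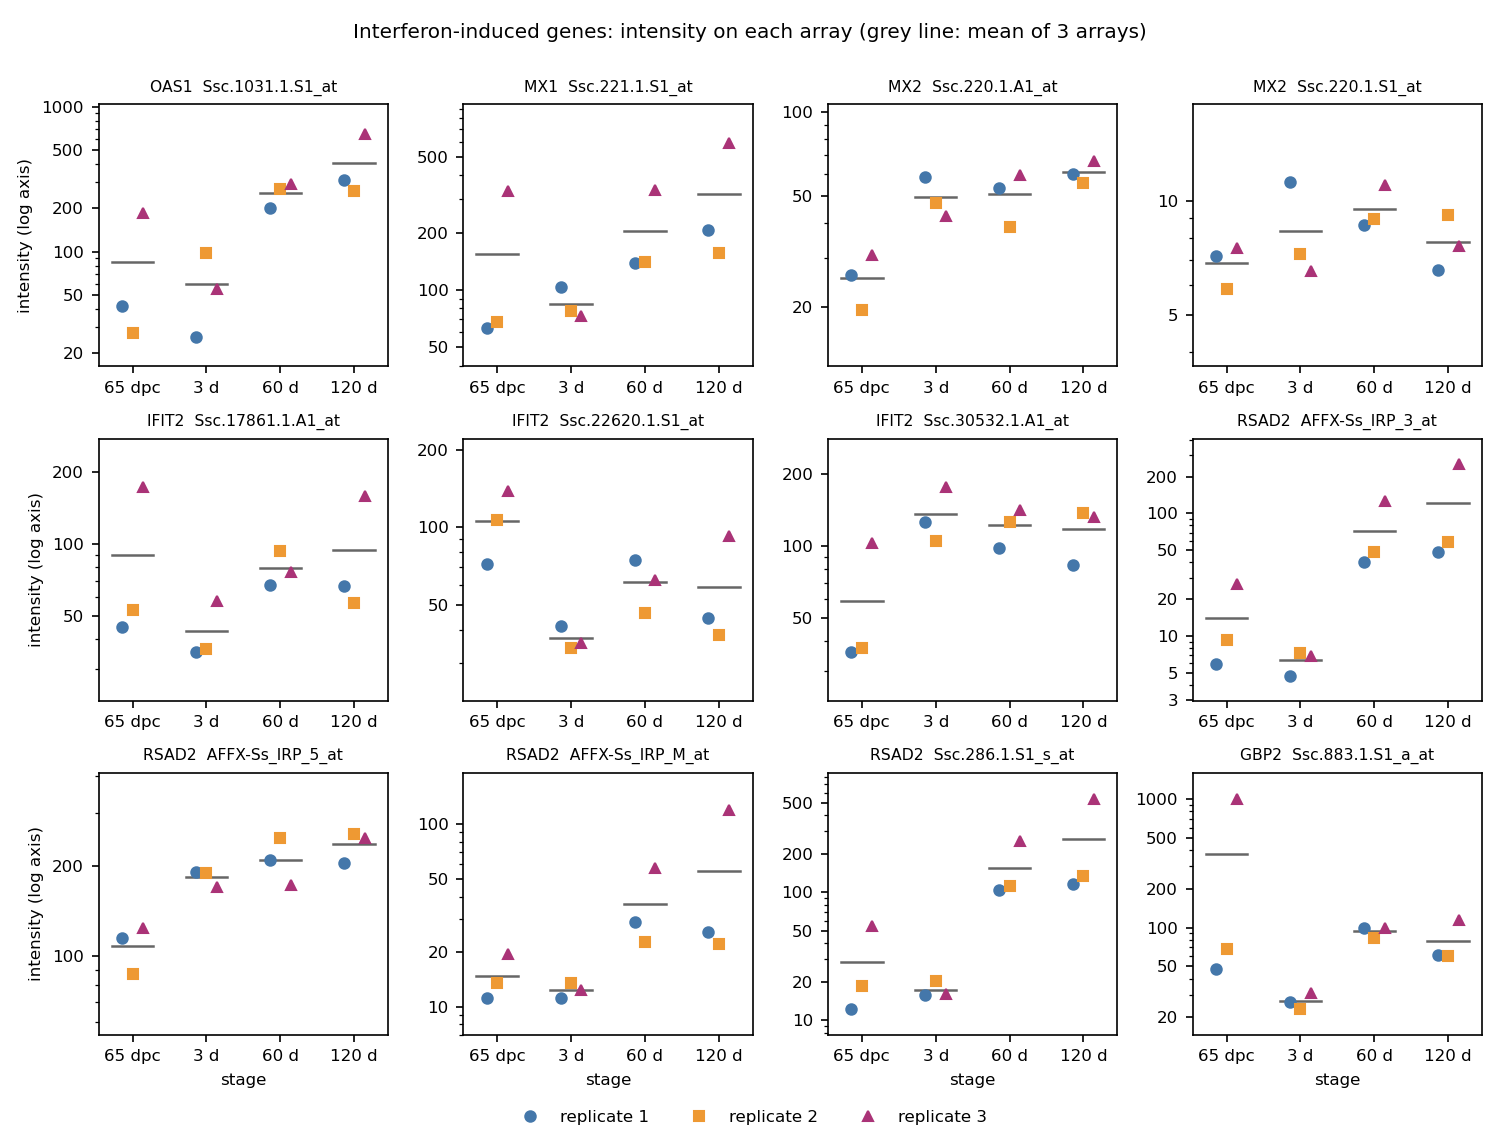
Intensity (log axis) of each of the 12 probe sets of the 6 genes, by stage. Symbols mark the 3 replicates and the grey line their mean. GBP2 reaches 1001 on fetal replicate 3, and OAS1, MX1 and RSAD2 are highest on 120 d replicate 3.

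By their names, the 3 control probe sets assigned to RSAD2 read the 5-prime, middle and 3-prime parts of its transcript. The 3-prime set read 5.92, 9.37 and 26.6 in the fetus, 4.78, 7.31 and 6.96 at 3 d, 39.9, 48.7 and 126 at 60 d, and 48.4, 58.7 and 255 at 120 d. It followed the tested set array by array, with replicate 3 the highest at 65 dpc, 60 d and 120 d. The middle set lay between 11.2 and 19.4 in the fetus and at 3 d, between 22.6 and 57.5 at 60 d, and between 21.9 and 119 at 120 d. The 5-prime set behaved otherwise, and whether it detects the same transcript was not tested. It read 115, 87.1 and 124 in the fetus, 191, 189 and 169.7 at 3 d, 209, 248 and 173 at 60 d, and 204, 256 and 248 at 120 d, and its replicate 3 led by 0.09 in the fetus and lay below another array at the other stages.

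With the control sets added to the fit, a step chosen after the data were seen, the 3-prime set rose by 1.77 ± 0.46 from the fetus to 120 d (limma adjusted p = 0.00734). The 5-prime set rose by 0.99 ± 0.18 over the same span (limma adjusted p = 8.18e-04), and by 0.67 ± 0.18 already from the fetus to 3 d (limma adjusted p = 0.0108). The tested set and the 3-prime set had differences of -0.28 and -0.31 at that step. The middle set did not pass the filter. Divided by the 5-prime set on the same array, the 3-prime set ranged from 0.0517 to 0.215 in the fetus, from 0.0251 to 0.0410 at 3 d, from 0.191 to 0.728 at 60 d and from 0.229 to 1.03 at 120 d. The same ratio for actin, a measure of RNA integrity and labelling, was 2.45 ± 0.168 (SD, n = 3) in the fetus, 3.61 ± 1.06 at 3 d, 5.10 ± 1.17 at 60 d and 5.08 ± 0.895 at 120 d. Its part in the RSAD2 values was not tested. Replicate 3 had the lowest actin ratio of its stage at all 4 stages, at 2.32, 2.58, 3.85 and 4.17.

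**Figure D2:**
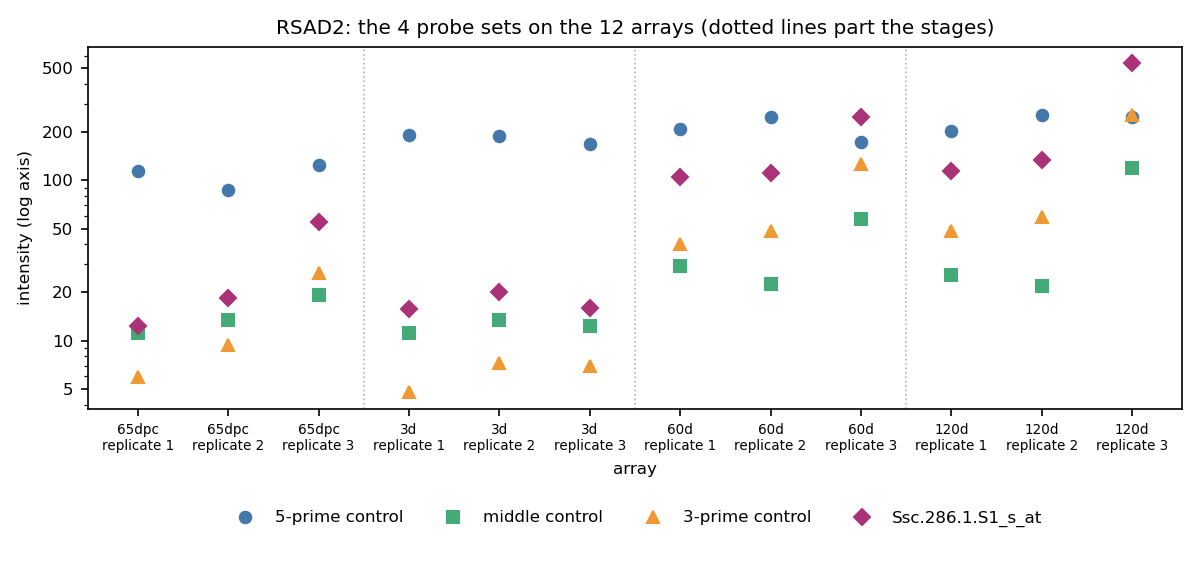
Intensity (log axis) of the 4 RSAD2 probe sets on the 12 arrays, with dotted lines between stages; heights of different probe sets are not comparable. The tested and the 3-prime sets move together up to 536 and 255 on 120 d replicate 3, while the 5-prime set stays between 87.1 and 256.

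The tested MX2 probe set rose from the fetus to 3 d, and no MX1 difference between stages passed the test. MX1 read 63.4, 68.0 and 331 in the fetus, 104, 77.3 and 72.6 at 3 d, 138, 139.5 and 335 at 60 d, and 207, 157 and 592 at 120 d. Replicate 3 was far above the other arrays in the fetus, at 60 d and at 120 d, and not at 3 d. Means were 154 ± 153 (SD, n = 3), 84.6 ± 16.8, 204 ± 113 and 319 ± 238, and each neighbour in the order of levels (3 d, 65 dpc, 60 d, 120 d) overlapped with the next. The 120 d minus 65 dpc difference was 1.08 ± 0.56 (limma adjusted p = 0.131), and without fetal replicate 3 it was 1.75 and passed (limma adjusted p = 0.0102). Of 25 alternatives 4 called it, the others being array weights (0.0361), the replicate block (0.0396) and leaving out replicate 3 of all stages (0.00256), all as limma adjusted p. The F test over the 4 stages moved likewise, from a limma adjusted p of 0.147 to 0.0216 without fetal replicate 3, and 4 of 24 alternatives called it. From 3 d to 60 d the arrays did not overlap, with a difference of 1.0 ± 0.56 (limma adjusted p = 0.411).

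The tested MX2 probe set read 25.9, 19.5 and 30.8 in the fetus, 58.7, 47.0 and 42.5 at 3 d, 53.5, 38.8 and 59.6 at 60 d, and 59.9, 55.7 and 66.8 at 120 d. Every array after birth lay above every fetal array, and the 3 stages after birth overlapped. MX2 rose by 0.60 ± 0.14 from the fetus to 3 d (limma adjusted p = 0.00520) and by 0.82 ± 0.14 from the fetus to 120 d (limma adjusted p = 5.89e-04). Both calls were kept in all 24 alternatives that tested it, and the filter at the 60th percentile left the set out. From 3 d to 60 d the difference was 0.02 ± 0.14 (95% interval -0.29 to 0.33; limma adjusted p = 0.960). No array stood out by more than 1 on the log2 scale. Replicate 3 led the next array of its stage by 0.15 in the fetus, 0.11 at 60 d and 0.12 at 120 d. The second MX2 probe set ranged from 5.88 to 11.2 and was not tested. Fetal values of the tested set lay near the pseudocount of 21 and below the array medians, so the rise rests on 1 dim probe set.

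The 3 IFIT2 probe sets did not move together, so no direction is given for the gene. The set Ssc.17861.1.A1_at read 44.9, 53.1 and 172 in the fetus, 35.5, 36.6 and 57.9 at 3 d, 67.6, 93.7 and 76.2 at 60 d, and 66.8, 56.7 and 159 at 120 d. Fetal replicate 3 and 120 d replicate 3 stood above all other arrays. No comparison called it (F test, limma adjusted p = 0.318), and from 3 d to 60 d its arrays did not overlap, with a difference of 0.65 ± 0.38 (limma adjusted p = 0.437).

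The set Ssc.22620.1.S1_at read 72.2, 107 and 138 in the fetus, 41.6, 34.2 and 35.6 at 3 d, 74.8, 46.6 and 62.6 at 60 d, and 44.8, 38.5 and 92.6 at 120 d. All fetal arrays lay above all 3 d arrays, and the fall between them was 1.09 ± 0.25 on the log2 scale (-1.09, limma adjusted p = 0.00398), called in 25 of 25 alternatives. From 3 d to 60 d the arrays again did not overlap, with a difference of 0.49 ± 0.25 (limma adjusted p = 0.349). The 120 d minus 65 dpc change was -0.70 ± 0.25 (limma adjusted p = 0.0326). It lost its call without fetal replicate 2 (0.0804), fetal replicate 3 (0.115), 120 d replicate 1 (0.110) or 120 d replicate 2 (0.137), with quantile normalization (0.0571) and with only the 6 arrays compared (0.0616), all as limma adjusted p.

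The set Ssc.30532.1.A1_at went the other way after birth. It read 36.1, 37.6 and 103 in the fetus, 126, 105 and 175 at 3 d, 97.7, 126 and 141 at 60 d, and 83.2, 137 and 132 at 120 d. Its 3 d arrays all lay above the fetal arrays, by a narrow margin of 105 against 103, and it rose by 1.04 ± 0.29 (limma adjusted p = 0.0132). The call was lost without fetal replicate 1 (limma adjusted p = 0.0557) or fetal replicate 2 (limma adjusted p = 0.0585). The 120 d minus 65 dpc rise of 0.87 ± 0.29 (limma adjusted p = 0.0272) was lost without fetal replicate 1 (0.109), fetal replicate 2 (0.107), 120 d replicate 2 (0.0928) or 120 d replicate 3 (0.0872), and with arrays centred on hybridization controls (0.173), all as limma adjusted p.

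GBP2 fell from the fetus to 3 d, and its fetal level rested on a single array. It read 48.0, 68.6 and 1001 in the fetus, 26.4, 23.4 and 31.0 at 3 d, 99.7, 83.7 and 99.8 at 60 d, and 61.4, 60.4 and 114 at 120 d. Fetal replicate 3 was 14.6-fold above the next fetal array and 8.75-fold above the next highest array of the series, which was 120 d replicate 3. The fetal mean was 373 ± 544 (SD, n = 3) against 26.9 ± 3.84 at 3 d, 94.4 ± 9.28 at 60 d and 78.7 ± 30.9 at 120 d. The 3 d arrays lay below all others. The 3 d minus 65 dpc change was -1.95 ± 0.73 (95% interval -3.54 to -0.37; limma adjusted p = 0.0471). Without fetal replicate 3 the change was -0.72 ± 0.21 and still passed (limma adjusted p = 0.0195). The call was kept in 12 of 25 alternatives. Leaving out any single array of 3 d, 60 d or 120 d lost the call, with limma adjusted p from 0.0543 without 60 d replicate 2 to 0.104 without 3 d replicate 2. From 3 d to 60 d the arrays did not overlap and the difference was 1.27 ± 0.73 (limma adjusted p = 0.424), and without fetal replicate 3 the same difference had an SE of 0.19 and passed (limma adjusted p = 0.0101). The F test went from a limma adjusted p of 0.173 to 0.00172 without that array. The 120 d minus 65 dpc difference was -0.93 with it and 0.30 without it, and neither passed (limma adjusted p = 0.309 and 0.265).

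Counted over the 8 tested probe sets, 5 were called by the F test, where 46.9% of all probe sets were. At the first step, from the fetus to 3 d, 4 of 8 were called against 43.0% of all. MX2 and 1 IFIT2 set rose (2 of 8, against 20.3% of all) and GBP2 and another IFIT2 set fell (2 of 8, against 22.6%). The same 4 sets were those without overlap, where 26.7% of all probe sets were higher and 26.3% lower without overlap. Over the whole span to 120 d, 5 of 8 were called against 48.4%: OAS1, RSAD2, MX2 and 1 IFIT2 set rose (4 of 8, against 23.4%) and another IFIT2 set fell (1 of 8, against 25%). Arrays of 120 d were all higher than those of the fetus in 3 of the 8, against 30.0%. The shares for the F test and the first step were near those of all probe sets. Over the whole span the share called in either direction and the share without overlap were near them too. IFIT2 gives 3 of the 8 sets, which are not independent of each other.

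The step from 3 d to 60 d read differently by overlap and by test. None of the 8 passed (1.53% of all probe sets did), and 2 had an unadjusted limma p under 0.05, namely OAS1 and RSAD2, where 16.6% of all probe sets did. Yet 6 of 8 had all 60 d arrays above all 3 d arrays, against 10.4% of all probe sets: OAS1, MX1, RSAD2, GBP2 and 2 IFIT2 sets. Their median log2 difference over the 8 was 0.82, and that of all probe sets was -0.00. Other settings called up to 3 of the 8, which was reached without fetal replicate 3. From 60 d to 120 d none of the 8 was called by limma, with none at an unadjusted p under 0.05 either, and no probe set of the array was called (0.00%, with 6.32% at an unadjusted p under 0.05). The members' median log2 difference there was 0.15.

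**Figure D3:**
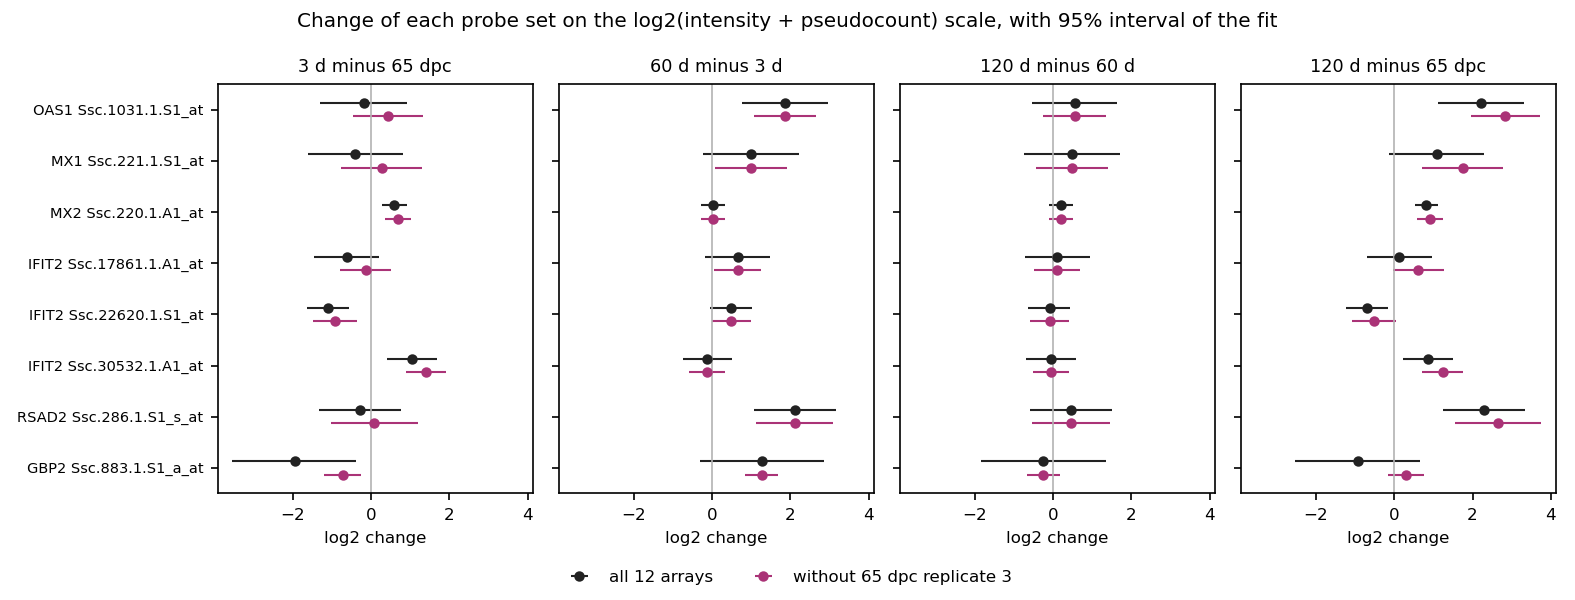
Log2 change of the 8 tested probe sets in 4 comparisons, with the 95% interval of the limma fit, for all 12 arrays (black) and without 65 dpc replicate 3 (purple). Leaving out that array moves the GBP2 change at the first step from -1.95 to -0.72 and the OAS1 change over the whole span from 2.21 to 2.84.

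Much of the spread within stages lay in 3 arrays, all of them replicate 3. The labels do not say what a replicate number marks. Over all tested probe sets the deviations of fetal replicate 3 from its stage mean correlated with those of replicate 3 at 3 d, 60 d and 120 d at r = 0.2595, 0.143 and 0.2972. After birth, replicate 3 of 3 d correlated with that of 60 d at -0.208 and of 120 d at 0.1216. Replicate 3 of 60 d and of 120 d correlated at 0.0333. Of 18 same-number pairs of arrays 8 exceeded 0.1, and pairs of different number ranged from -0.4077 to 0.6456. Whether arrays of one number share a litter, batch or day was not tested. On fetal replicate 3, all 8 probe sets were the highest of their stage, which held for 35.5% of all probe sets there, and 5 of 8 exceeded the next array by more than 1 on the log2 scale, against 2.03% of all. The leads were 3.51 for GBP2, 1.98 for MX1, 1.71 for OAS1, and 1.38 and 1.08 for 2 IFIT2 sets. On 120 d replicate 3, 7 of 8 were highest (37.9% of all) and 4 of 8 led by more than 1 (0.427% of all), namely RSAD2 by 1.84, MX1 by 1.42, 1 IFIT2 set by 1.03 and OAS1 by 1.01. On 60 d replicate 3, 6 of 8 were highest (27.3% of all) and 2 of 8 led by more than 1 (0.581% of all), MX1 by 1.15 and RSAD2 by 1.04. No tested member led by more than 1 on any of the other 9 arrays. The members and the gene lists below were chosen with earlier results of these data known. Shares set beside those of all probe sets therefore describe these arrays and are not independent support.

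The order of the genes differed between these arrays. On fetal replicate 3 GBP2 had the largest lead and RSAD2 led by 0.94, whereas on 120 d replicate 3 RSAD2 had the largest lead and GBP2 led by 0.72. On 60 d replicate 3 the lead of GBP2 was 0.00. Compared each with itself, GBP2 read 1001 on fetal replicate 3 and 114 on 120 d replicate 3, while RSAD2 read 54.9 and 536 on the same arrays. MX1 was high on all 3 arrays, at 331, 335 and 592.

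**Figure D4:**
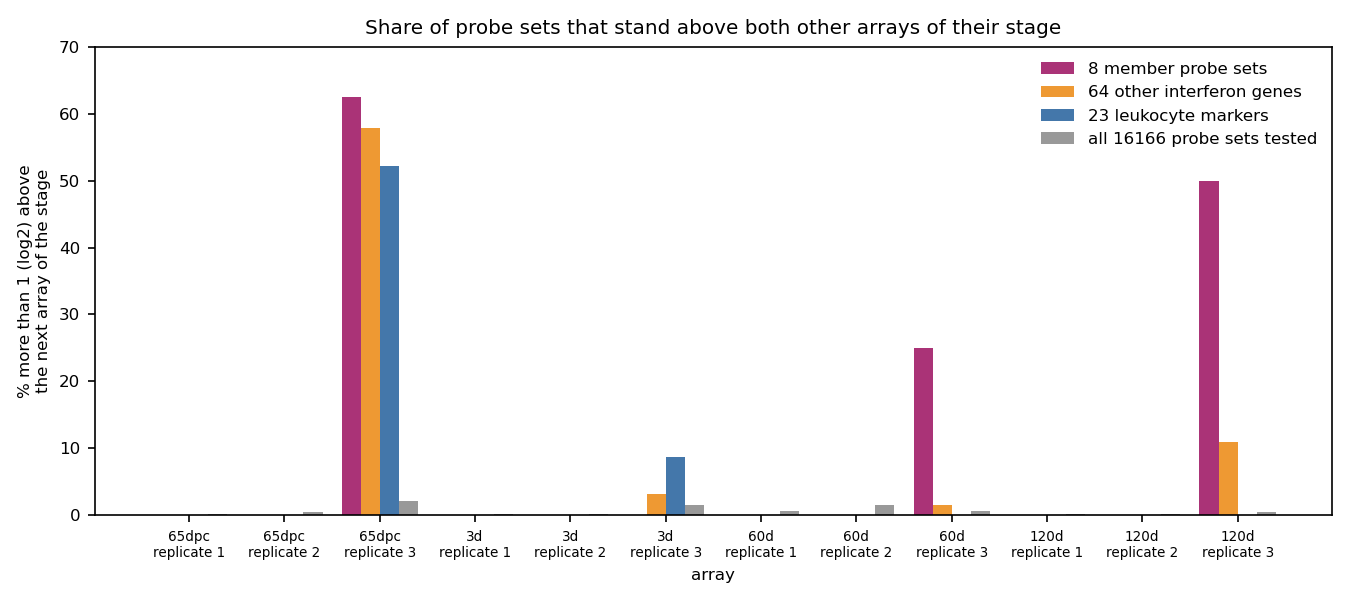
Percentage of probe sets that exceed the next array of their stage by more than 1 on the log2 scale, for each of the 12 arrays, in the 8 member probe sets, 64 other interferon genes, 23 leukocyte markers and all 16166 probe sets. On 65 dpc replicate 3 all 3 groups are far above the 2.03% of all probe sets, and on 120 d replicate 3 the members and other interferon genes are above 0.427% while no leukocyte marker is.

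Other genes of the interferon pathway were taken from a list of 143, of which 75 were on the array and 64 passed the filter with 1 probe set each. By the F test 15 of 64 were called, a smaller share than the 46.9% of all probe sets. From the fetus to 3 d 6 rose and 6 fell (43.0% of all probe sets were called), with a median log2 difference of -0.43, and from the fetus to 120 d 7 rose and 6 fell (48.4% of all), with a median of 0.16. The steps from 3 d to 60 d and from 60 d to 120 d called none, with medians of 0.32 and 0.17.

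Ligand values lay below the array medians of 49.1 to 52.6, apart from IFNG on fetal replicate 3. Of 11 listed, 4 were on the array and none passed the filter: IFNA1 ranged from 19.0 to 46.4, IFNB1 from 7.81 to 14.4 and IFN-DELTA-1 from 12.1 to 23.0 over the 12 arrays. IFNG, the gene of interferon gamma, named here after its values were seen, read 15.9, 6.48 and 79.4 in the fetus and between 11.2 and 16.7 on all arrays after birth. It was thus highest on fetal replicate 3, where GBP2 and the IFIT2 sets Ssc.17861.1.A1_at and Ssc.22620.1.S1_at were also highest. Any link between these values was not tested.

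Among 9 receptor and signalling genes, TYK2, the kinase bound to the type I receptor, fell by 1.05 on the log2 scale from the fetus to 3 d (-1.05 ± 0.18, limma adjusted p = 7.49e-04) and by 1.29 to 120 d (-1.29 ± 0.18, limma adjusted p = 1.45e-04). IFNAR1, a chain of that receptor, fell by 1.61 to 120 d (-1.61 ± 0.33, limma adjusted p = 0.00173). STAT2 fell by 0.97 to 3 d (-0.97 ± 0.26, limma adjusted p = 0.00964). These calls were kept in 12 of 12 fits without 1 array. Over the 9 genes, 1 rose and 4 fell to 3 d, a step where 20.3% of all probe sets rose and 22.6% fell. To 120 d, 3 of the 9 were called, all of them falls, against 48.4% of all probe sets called in either direction. The other calls counted there were less stable, and IFNAR2 and IFNGR1 are named after their values were seen. The rise of IFNAR2 to 3 d was kept in 9 of 12 such fits and lost with centring on hybridization controls (limma adjusted p = 0.156). The falls of IFNAR1 and IFNGR1 to 3 d were kept in 8 of 12 each, and that of STAT2 to 120 d in 5 of 12.

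Of 10 regulators, IRF3, a transcription factor activated by viral sensing, read 55.9, 51.8 and 76.2 in the fetus and 354, 319 and 337 at 120 d. It rose by 2.13 ± 0.32 over that span (limma adjusted p = 2.20e-04). PIAS1, an inhibitor of interferon signalling, fell by 1.37 from the fetus to 3 d (-1.37 ± 0.20, limma adjusted p = 2.87e-04). CIITA, the switch for class II genes, rose by 0.82 ± 0.18 to 120 d (limma adjusted p = 0.00235), and IRF7, which amplifies type I interferon, rose by 1.02 ± 0.27 (limma adjusted p = 0.00744). CIITA and IRF7 no longer passed when arrays were centred on hybridization controls (limma adjusted p = 0.0853 and 0.0783). Of 6 sensors, MAVS, the mitochondrial adaptor of RNA sensing, rose by 0.80 ± 0.12 to 3 d (limma adjusted p = 3.33e-04). DDX58, the RNA sensor RIG-I, rose by 1.18 ± 0.41 to 120 d (limma adjusted p = 0.0313), a call lost without 120 d replicate 3 (limma adjusted p = 0.131), without fetal replicate 1 or 2 (0.110 in each) and with centring on hybridization controls (0.0891).

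Of 19 effectors, 5 were called by the F test, against 46.9% of all probe sets: PML, IFI44L, IFIT1, EIF2AK2 and PNPT1, the last named after its value was seen. Each of these F test calls was lost in at least 1 fit without a single array. PML kept it in 11 of 12 fits (limma adjusted p = 0.0711 without fetal replicate 1), EIF2AK2 in 10 (up to 0.141, without 3 d replicate 1), IFI44L in 9 (up to 0.0855, without 3 d replicate 1), IFIT1 in 8 (up to 0.0778, without 3 d replicate 1) and PNPT1 in 4 (up to 0.0936, without fetal replicate 1). PML, a scaffold of nuclear bodies, rose by 0.97 ± 0.25 to 3 d (limma adjusted p = 0.00865). EIF2AK2, the RNA-activated kinase PKR, fell by 0.96 at the same step (-0.96 ± 0.30, limma adjusted p = 0.0232), a call lost without fetal replicate 3 (0.0853), 3 d replicate 1 (0.0881) or 3 d replicate 2 (0.0503). ISG15, a ubiquitin-like modifier, read 45.5, 13.7 and 349 in the fetus, 39.0, 60.5 and 51.8 at 3 d, 43.4, 233 and 515 at 60 d, and 270.0, 258 and 1406 at 120 d. Replicate 3 was the highest at 65 dpc, 60 d and 120 d, as for MX1 and RSAD2. Its 120 d minus 65 dpc rise of 2.36 ± 0.90 (limma adjusted p = 0.0468) was kept in 3 of 12 fits without 1 array, and the limma adjusted p was 0.193 without 120 d replicate 3. Of 20 antigen presentation genes 1 was called by the F test, SLA-DMA (limma adjusted p = 0.0180), against 46.9% of all probe sets, and the call was lost without 3 d replicate 2 (limma adjusted p = 0.0503).

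Fetal replicate 3 and 120 d replicate 3 stood apart for these genes too, and 60 d replicate 3 did so by less. The groups that led by more than 1 differed between fetal replicate 3 and 120 d replicate 3. On fetal replicate 3, 56 of 64 were the highest of their stage (35.5% of all probe sets) and 37 led by more than 1 (2.03% of all). Among those 37 were 13 of 19 effectors and 18 of 20 antigen presentation genes. Many of the antigen presentation genes are related SLA genes, and whether their probe sets detect each other's transcripts was not tested. The 3 with the largest lead were CXCL9, a chemokine induced by interferon gamma, at 1689.5 against 10.8 and 11.0 on the other fetal arrays, PSMB8, a subunit of the immunoproteasome, at 1037 against 24.8 and 21.1, and SLA-DRA, a class II chain, at 2665 against 92.9 and 112. GBP1, the neighbour of GBP2, named after its values were seen, read 78.4, 51.2 and 1502 in the fetus and between 51.3 and 131 after birth. On 120 d replicate 3, 48 of 64 were highest (37.9% of all probe sets) and 7 led by more than 1 (0.427% of all). The 7 were ISG15, DDX58 and XAF1 by the naming rule, and TNFSF10, IFIT1, IFIT3 and USP18. These held 5 of 19 effectors and 0 of 20 antigen presentation genes. Yet 15 of 19 effectors and 17 of 20 antigen presentation genes were the highest of their stage there. On 60 d replicate 3, 34 of 64 were highest (27.3% of all probe sets), among them 15 of 20 antigen presentation genes. Only 1 led there by more than 1 (0.581% of all), ISG15. On 3 d replicate 3, where no member did, 2 of 64 led by more than 1 (1.46% of all).

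Markers of leukocytes were read on the same arrays. Of 50 listed, 32 were on the array and 23 passed the filter. On fetal replicate 3, 22 of 23 were the highest of their stage (35.5% of all probe sets) and 12 led by more than 1 (2.03% of all). The summed intensity of the 23 was 11449 there against 1441 and 1363 on the other fetal arrays. The macrophage markers FCGR3A, C1QA and C1QC led there, at 1390.3, 1276 and 3575. PTPRC, the general leukocyte marker CD45, read 18.4, 17.1 and 59.0 in the fetus. On 120 d replicate 3, 20 of 23 were highest (37.9% of all probe sets) and 0 led by more than 1 (0.427% of all). The sum was 4225 there against 2770.4 and 1817. On 60 d replicate 3, 13 of 23 were highest (27.3% of all probe sets) and 0 led by more than 1 (0.581% of all). Summed intensities ranged from 1807 to 2948 at 3 d and from 1721 to 2854 at 60 d. No marker value was 0. On 3 d replicate 3, 13 of 23 were highest (41.3% of all probe sets) and 2 led by more than 1 (1.46% of all), CD163 and S100A9. No tested member led by more than 1 on that array. Leukocyte markers were thus high on fetal replicate 3, where 5 of 8 member probe sets led by more than 1, and by less on 120 d replicate 3. Their part in these values was not tested.

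**Figure D5:**
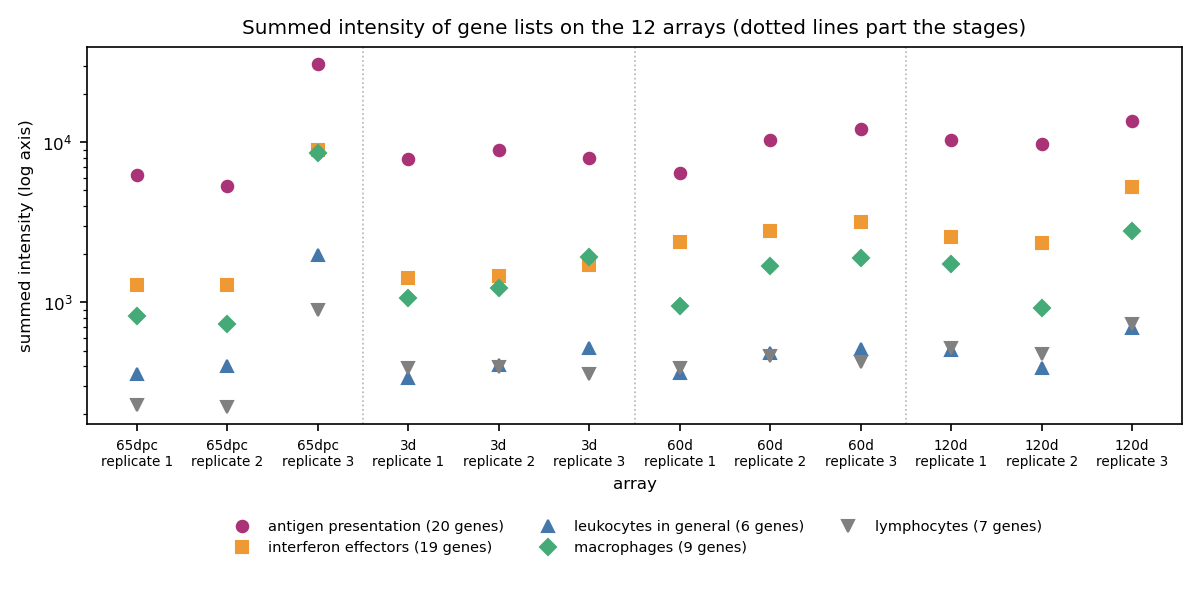
Summed intensity (log axis) of antigen presentation genes, interferon effectors and leukocyte marker lists on the 12 arrays, with dotted lines between stages. On 65 dpc replicate 3 antigen presentation genes sum to 30733 and macrophage markers to 8542, and on 120 d replicate 3 to 13499 and 2774.

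For each of the 6 genes the most similar other genes were sought by Pearson r of log2 values over the 12 arrays, among 5764 genes. These correlations describe arrays that share stages and outlying samples. OAS1 was closest to IFIT1 (r = 0.940), FCGR2B (0.932) and OPTN (0.927), and RSAD2 to CYP3A29 (0.951), OPTN (0.940) and DDX58 (0.939). OAS1 and RSAD2 correlated with each other at 0.934. MX1 was closest to USP18 (0.968), XAF1 (0.964) and DDX58 (0.945), and correlated with RSAD2 at 0.874 and with OAS1 at 0.837. GBP2 was closest to NUB1 (0.957), TAP1 (0.946) and SP140 (0.946), and correlated with MX1 at 0.613 and with OAS1 at 0.394. MX2 was closest to TPI1 (0.976), a glycolytic enzyme, SSTR5 (0.967) and SLC30A3 (0.966), and correlated with MX1, its neighbour in the genome, at 0.527. The brightest IFIT2 set, Ssc.30532.1.A1_at, was closest to FSTL3 (0.961), CALR (0.944) and PLLP (0.940), none of which is on the interferon lists. It correlated with MX1 at 0.414. The other IFIT2 sets, which moved differently, were not compared in this way.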

How the data were processed

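Each probe set has 1 deposited intensity per array, unlogged, and GCOS 1.4 is named in the submitters' processing notes. RNA was extracted with Trizol and labelled with biotin, per the labels' protocols. How probes were summarised, corrected for background and scaled is not given in the sources used here. Scanner files were not used here.

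Probe sets were assigned to genes by a platform annotation of 2016. After 124 control probe sets were set aside, 23999 remained, and 16166 (67.4%) lay above the 40th percentile of their array on at least 3 arrays. Values were transformed as log2(intensity + 21) and all 12 arrays entered a single limma fit (stage means, variance trend, two-sided tests) with Benjamini-Hochberg adjustment over the 16166. For other genes the kept probe set with the highest mean was used.

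Members and gene lists were chosen with earlier results of these data known. All member probe sets are named. Of other interferon genes, up to 4 per list with the smallest F test p among those called, up to 3 per array with the largest lead over the next array of the stage, and the 3 genes most like each member are named, and others are marked.

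On simulated data for the first step the fit recovered 57% of log2 changes of 1 and 91% of changes of 2, with 9 false calls. The simulation used normal noise and raised 100 of 16166 probe sets by each amount. In the data 43.0% were called at that step, in both directions, so these rates need not hold there. Settings varied were the pseudocount (1 or 51), the filter (none, or the 60th percentile), scaling by quantile normalization, centring on the array median or on 18 hybridization controls, no variance trend, array weights, a replicate block, only the 6 arrays compared, and leaving out each array. Leaving out replicate 3 of all stages and including control probe sets were chosen after seeing the data. Programs were limma 3.58.1 in R 4.3.3 with data.table version 1.17.8, and Python 3.11.15, NumPy 2.4.6, pandas 2.3.3 and matplotlib 3.10.9.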

Additional observations from a re-analysis of the deposited data

How the results depend on the processing

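No result changed direction while called. Over all probe sets, the 60 d minus 3 d count of 247 became 926 with array weights, 161 with the replicate block, 39 with only the 6 arrays compared, and 75 to 297 without 1 array, and the 120 d minus 60 d count of 0 became 1 with no filter and 0 to 5 without 1 array. For member probe sets the 60 d minus 3 d count of 0 became 1 with a pseudocount of 1, the 60th percentile filter, quantile normalization, array weights or the replicate block, 2 with only the 6 arrays compared, 0 to 3 without 1 array, and 3 without replicate 3 of all stages. Without 1 array the members called from the fetus to 120 d numbered 3 to 5, the lowest without fetal replicate 2 or 120 d replicate 2, and those called by the F test 3 to 6, or 8 without replicate 3 of all stages. The causes were not tested. Over all tested probe sets, same-number arrays had correlations of deviations from -0.4245 to 0.2972. Of 18 pairs 8 were over 0.1, and 4 of 12 arrays were closest to their own number, so the main fit did not take the numbers as pairs. Among members, the replicate block lowered the SE of 60 d minus 3 d from 0.48 to 0.31 for RSAD2 and from 0.56 to 0.38 for MX1. RSAD2 then passed at that step (limma adjusted p = 0.0147). Centring on hybridization controls moved the median of all probe sets by -0.24 from the fetus to 3 d and by -0.36 to 120 d. The scale of the deposited values, the absence of detection calls and 3 arrays per stage limit what dim probe sets can show.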
